A study of Homo sapiens with 8 samples.

Results

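CTCF, 4 subunits of the cohesin ring (RAD21, SMC3, STAG1 and STAG2), the cohesin loader NIPBL, the cohesin release factor WAPL and the looping factors YY1, LDB1 and SATB1 were examined for active histone marks in HL-60 cells with and without all-trans retinoic acid (ATRA). These 10 genes, out of 20098 protein-coding genes on chromosomes 1 to 22 and X, were taken by name as the main architects of chromatin folding, because the study compared chromatin conformation in the same cells. HL-60 is a human leukemia line with promyelocytic features that matures along the granulocytic path when it is given ATRA. Cells received 1 µM ATRA for 4 days, or the same volume of the solvent ethanol as control. H3K4me3, the mark of active promoters, and H3K27ac, the mark of active promoters and enhancers, were mapped by ChIP-seq in 2 replicates per condition, which makes 8 libraries, 4 per mark. All libraries came from 1 cell line, and the labels do not say whether replicates were separate cultures, so the spread between them may be technical.

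Cohesin is a ring of SMC and kleisin proteins that holds DNA strands together and extrudes chromatin loops. NIPBL loads and drives the ring, WAPL opens and releases it, and CTCF bound to DNA stops it, which leaves loops and domain boundaries anchored at CTCF sites. YY1 and LDB1 bridge promoters and enhancers, LDB1 in blood cells through GATA and LMO partners, and SATB1 organizes chromatin in lymphoid cells. Genes for such general factors usually start in CpG islands, stretches rich in the dinucleotide CG that carry H3K4me3 whenever the gene is active.

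Each library was described by its own peaks, the stretches in which the mark stood above background. For every gene, the length under peaks was measured over its window, the gene body plus 10 kb on each side, and separately the peak that covered the canonical transcription start site (TSS) was taken. A gene was called higher when both ATRA libraries exceeded both controls, lower in the reverse case, and overlapping otherwise. The smallest two-sided p of an exact permutation of 2 against 2 libraries is 0.333, so no single gene could pass 0.05, and calls were read against their share among all genes.

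The libraries of H3K4me3 held 13241 to 16487 peaks covering 47.7 to 63.2 Mb, the lowest in control 2, and those of H3K27ac held 15457 to 39332 peaks covering 28.8 to 86.1 Mb, the lowest in control 1. Within each replicate number, ATRA held more peaks than control for both marks. The paper reports fewer peaks in ATRA for both marks, counting those found in both replicates. The reason for this difference was not tested. Over the genome, the covered length was higher in ATRA than in control by 0.22 (log2) for H3K4me3 and by 0.87 for H3K27ac, so a longer window length in ATRA was the common outcome. For this reason the counts of window lengths over the 10 genes are also given after the lengths were scaled by the total length under peaks of the library. Among markers, 7 of 8 myeloid genes had a H3K4me3 peak over the TSS in all 4 libraries, 6 of 6 genes of other lineages had none (4 of 6 for H3K27ac), and CD38 and ITGAM, which ATRA induces in myeloid cells, had longer windows in both ATRA libraries for both marks. Of the other genes on that list, CEBPE overlapped for both marks, TGM2 (H3K27ac) and NCF1 (H3K4me3) were higher for 1 mark each, and of the other lineages CD3E was higher for H3K27ac.

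All 10 genes carried H3K4me3 over the TSS in all 4 libraries, against 50.4% of protein-coding genes. Their window lengths were higher in ATRA for 7 genes, lower for 0 and overlapping for 3, against a background of 40.8% higher and 3.85% lower among 13779 genes with a peak in the window. The log2 change was above 0 for all 10, with a median of 0.18 and a range of 0.09 to 0.29, next to a median of 0.15 over all genes tested. After scaling, 1 gene was higher (RAD21) and 1 was lower (CTCF), against 16.1% and 24.7% of genes. Within both replicate numbers ATRA exceeded control for 9 genes, all except LDB1, and was lower for 0, against 54.6% and 6.84% of genes. The promoter mark was therefore present throughout, and the changes in its length were small.

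H3K27ac was less uniform. A peak covered the TSS in all 4 libraries for 6 of the 10 genes, namely CTCF, SMC3, STAG1, STAG2, NIPBL and YY1, against 19.5% of protein-coding genes. Window lengths were higher in ATRA for WAPL, YY1 and LDB1, lower for RAD21 and overlapping for the other 6, beside background shares of 41.6% higher and 3.93% lower among 14622 genes. The log2 changes ran from −1.16 for STAG2 to 1.51 for WAPL, with a median of 0.27, next to 0.45 over all genes tested. The median of the 10 was −0.19 without ATRA 2 or without control 1, and −0.41 after scaling. After scaling, WAPL alone was higher and 5 genes were lower, against 17.7% and 25.4%. Within both replicate numbers, STAG1, WAPL, YY1, LDB1 and SATB1 were higher (5 genes) and RAD21, STAG2 and NIPBL lower (3 genes), against 59.6% and 8.02% of genes. For NIPBL, ATRA minus control was only −51 and −264 bp. At the STAG2 start itself, ATRA 1 was higher than control 1, with 4763 against 3859 bp. Most H3K27ac peaks over the 10 TSS had a low deposited −log10 q. Its median was 1.65 to 2.34 per library, whereas that of the H3K4me3 peaks was 12.8 to 19.2. This value did not always follow peak length or sharing between libraries. A H3K4me3 peak of 746 bp near SMC3, found in ATRA 2 only, had 50.3, and the SMC3 TSS peak of that library had 21.2.

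**Figure D1:**
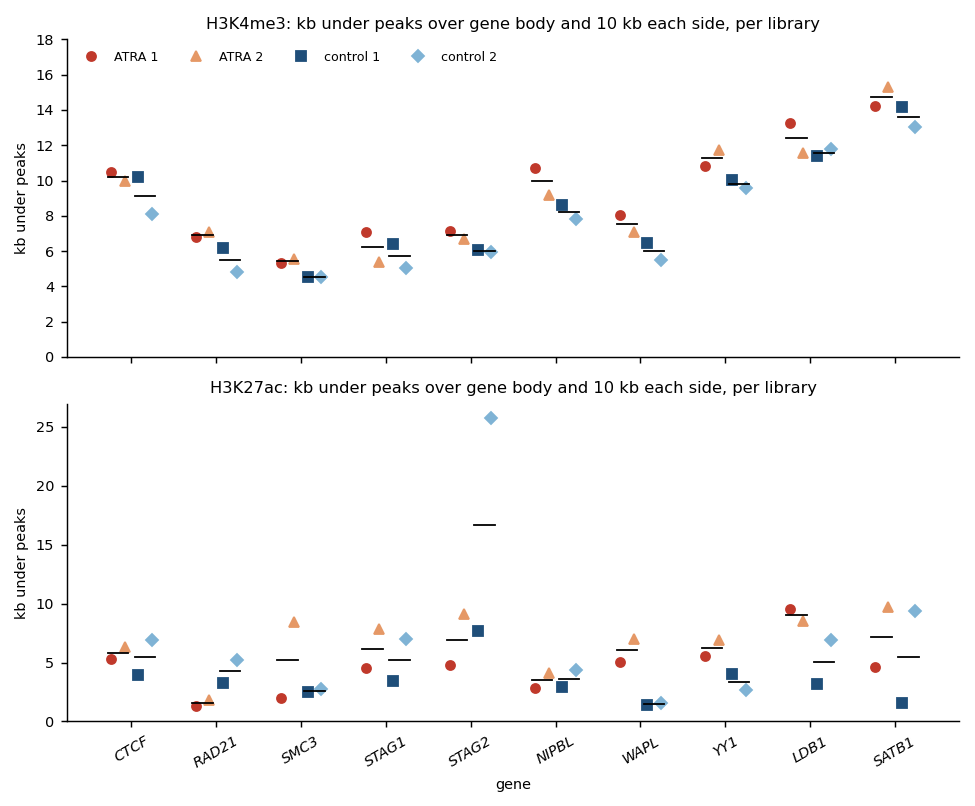
Kilobases under peaks (y axis, from 0) over the gene body and 10 kb on each side of the 10 genes (x axis), with 1 point per library and a black line at the mean of the 2 libraries of a condition; H3K4me3 above and H3K27ac below. The H3K4me3 points of a gene lie close together and those of ATRA lie mostly a little higher, whereas the H3K27ac points spread widely, with WAPL at 5074 and 6966 bp in ATRA against 1360 and 1580 bp in control, and STAG2 at 25687 bp in control 2.

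WAPL and YY1 were higher for both H3K4me3 and H3K27ac, 2 of 10 genes against 19.0% of the 12989 genes with peaks of both marks. After scaling this held for 0 of the 10, against 4.55%. RAD21 was the 1 gene that was higher for H3K4me3 and lower for H3K27ac, a combination found in 0.955% of those genes.

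**Figure D2:**
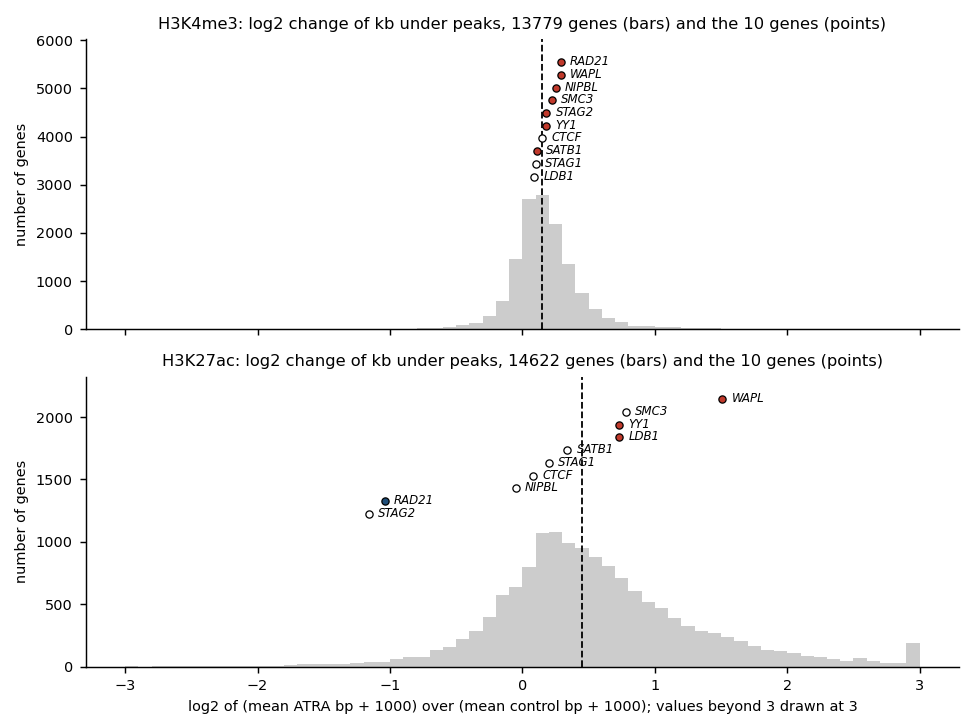
Log2 change of the length under peaks in the window (x axis; mean of the ATRA libraries plus 1000 bp over mean of the control libraries plus 1000 bp) for all genes with a peak of the mark (grey bars, y axis in genes; dashed line, their median of 0.15 for H3K4me3 and 0.45 for H3K27ac) and for the 10 genes (points set above the bars for legibility; red, higher; blue, lower; white, overlapping). The 10 genes sit within a narrow band for H3K4me3 and spread from STAG2 and RAD21 below −1 to WAPL at 1.51 for H3K27ac.

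CTCF, the zinc finger protein that marks domain boundaries, lies on the plus strand at chr16:67596370-67673080 (GRCh37, the build of the files). Its H3K4me3 window held 10472 and 9981 bp in ATRA and 10189 and 8091 bp in control, so the groups overlapped, with a log2 change of 0.15. Its H3K27ac window held 5272 and 6332 bp in ATRA and 3952 and 6939 bp in control, again overlapping, at 0.08. The difference inside the gene was a short H3K4me3 peak at chr16:67601089-67601830, 5.03 kb downstream of the canonical TSS and near another annotated start of CTCF. It measured 453 and 635 bp in ATRA and was not called in either control library. Of the 18 separate H3K4me3 regions in the 10 windows, this was the 1 region found in both ATRA libraries only, a class with 3.04% of the 19906 H3K4me3 regions of the genome. At the other end of the window lay the promoter of CARMIL2, a regulator of actin and T cell signalling, where H3K27ac measured 0 and 200 bp in ATRA and 490 and 1073 bp in control.

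RAD21, the kleisin that closes the cohesin ring, lies on the minus strand of chromosome 8. It had 1 H3K4me3 region, over its own start, which measured 6770 and 7091 bp in ATRA and 6180 and 4823 bp in control (6930.5 ± 227 against 5501.5 ± 960 bp, SD, n = 2). The ATRA libraries were both higher, with a log2 change of 0.29 (0.45 without control 1 and 0.14 without control 2), and remained so after scaling. H3K27ac ran the other way. The RAD21 window held 1313 and 1806 bp in ATRA and 3305 and 5190 bp in control (1559.5 ± 349 against 4247.5 ± 1330 bp, SD, n = 2), without overlap and with a log2 change of −1.04. The call also held after scaling.

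The difference in H3K27ac lay before the gene. Control 1 had a peak of 1548 bp from −3.46 to −1.91 kb relative to the RAD21 start and another of 1757 bp across the start, and control 2 had 1 peak of 4483 bp from −4.58 to −0.103 kb. Neither ATRA library had a H3K27ac peak upstream, and their single peaks began 0.023 and 0.154 kb inside the gene, where both controls had a peak as well. With the gene body alone and no flank, the log2 change was 0.31, in the opposite direction. The upstream stretch overlaps RAD21-AS1, a long non-coding RNA read in the other direction. The upstream peaks had a −log10 q of 5.96 in control 1 and 1.23 in control 2.

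SMC3, the SMC subunit that pairs with SMC1A, lies at chr10:112327442-112365806 on the plus strand. The H3K4me3 window held 5336 and 5549 bp in ATRA and 4522 and 4543 bp in control, higher in ATRA by 0.22 (log2). In H3K27ac, the values were 2005 and 8469 bp in ATRA and 2476 and 2777 bp in control. These overlapped, and the high value of ATRA 2 came mainly from a single peak of 3966 bp at 28.9 kb inside the gene that no other library had.

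STAG1, one of the interchangeable subunits that bind the closed ring, lies at chr3:136055078-136471245 on the minus strand. Its windows overlapped for both marks, with 7081 and 5358 bp in ATRA and 6427 and 5043 bp in control for H3K4me3, and 4514 and 7828 bp against 3473 and 7027 bp for H3K27ac. In each mark, replicate 1 and replicate 2 differed more than the conditions did. The log2 changes were 0.10 and 0.20.

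STAG2, the other such subunit and a gene often mutated in myeloid leukemia, lies on the plus strand of chromosome X, with its canonical transcript at chrX:123095556-123236506. The annotated gene runs on to 123556514 through 1 annotated transcript, which makes its window of 482453 bp the longest of the 10. H3K4me3 sat at the start alone, with 7142 and 6678 bp in ATRA and 6046 and 5925 bp in control, higher in ATRA by 0.18 (log2). The H3K27ac window held 4763 and 9075 bp in ATRA and 7648 and 25687 bp in control, which overlapped. Its log2 change of −1.16 was the lowest of the 10 but rested on peaks far beyond the canonical transcript. At the STAG2 start itself, H3K27ac measured 4763 and 3834 bp in ATRA and 3859 and 5319 bp in control, and over the canonical transcript with its flanks the log2 change was −0.08, a comparison added after the data were seen.

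The distant H3K27ac of the STAG2 window formed 2 groups of peaks, at 245 to 258 kb and at 418 to 436 kb from the start, on both sides of the SH2D1A gene of lymphocyte signalling. One region at chrX:123524587-123529811 measured 0 and 0 bp in ATRA and 1597 and 5225 bp in control. It was the 1 region of 41 found in both control libraries only, a class with 1.16% of the 53141 H3K27ac regions of the genome. A second, at chrX:123347286-123352737, measured 0 and 1290 bp in ATRA and 1781 and 5199 bp in control, lower in ATRA. The −log10 q of the peaks in these regions did not exceed 2.07.

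NIPBL, the loader, lies at chr5:36876871-37066515 on the plus strand. Its H3K4me3 window held 10719 and 9174 bp in ATRA and 8627 and 7822 bp in control, higher in ATRA by 0.25 (0.14 without ATRA 1). Within 2 kb of the starts of NIPBL the length under peaks was 4073 bp in each of the 4 libraries, since the peak spanned that stretch throughout. The whole difference lay farther out, where 6084 and 4539 bp in ATRA stood against 3992 and 3187 bp in control. H3K27ac overlapped, with 2854 and 4107 bp in ATRA and 2905 and 4371 bp in control, a log2 change of −0.05.

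WAPL, the release factor that opens the ring, lies at chr10:88195013-88281549 on the minus strand. It showed the highest log2 change of H3K27ac among the 10. Sequences from 2 places in the WAPL window are shown on the strand of the gene in GRCh37, with the CG dinucleotides in capitals. The first is the 250 bases before the TSS (chr10:88281550-88281799), and the second the middle 250 bases (chr10:88209109-88209358) of the intronic stretch that lay under H3K27ac in all 4 libraries (chr10:88208839-88209627).
WAPL promoter: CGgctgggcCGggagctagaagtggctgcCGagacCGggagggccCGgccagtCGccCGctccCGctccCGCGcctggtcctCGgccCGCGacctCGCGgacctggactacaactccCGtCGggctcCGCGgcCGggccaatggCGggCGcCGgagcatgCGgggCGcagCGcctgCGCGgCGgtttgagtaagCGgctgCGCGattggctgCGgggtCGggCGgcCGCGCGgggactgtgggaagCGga
WAPL intron: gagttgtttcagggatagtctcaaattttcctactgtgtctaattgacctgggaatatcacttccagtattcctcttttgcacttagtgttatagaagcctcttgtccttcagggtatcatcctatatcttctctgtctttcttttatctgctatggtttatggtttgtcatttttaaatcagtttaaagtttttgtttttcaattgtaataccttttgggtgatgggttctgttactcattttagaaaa
The promoter held 39 CG dinucleotides and a GC content of 77.2%, more CG than 96.2% of all promoters of that length. The 250 intronic bases held 0 at a GC content of 34.0%, against 2.47 CG per 250 bases over chromosomes 1 to 22 and X. They lay under H3K27ac peaks in all 4 libraries, so the difference in the intron lay in the bases around them.

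The window of WAPL for H3K27ac held 5074 and 6966 bp in ATRA and 1360 and 1580 bp in control (6020 ± 1340 against 1470 ± 156 bp, SD, n = 2). The groups did not overlap, also after scaling, and the log2 change was 1.51. Both the start and the intron contributed. At the start, H3K27ac measured 2265 and 1035 bp across the TSS in both ATRA libraries, whereas control 1 had a peak of 571 bp that began 0.276 kb inside the gene and control 2 had none. In the intron, 73.0 kb from the start, the region at chr10:88206377-88210799 measured 2809 and 4326 bp in ATRA and 789 and 1580 bp in control. The −log10 q of these start and intron peaks lay between 0.709 and 1.56. H3K4me3 was present at the start only, with 8024 and 7064 bp in ATRA and 6455 and 5498 bp in control, higher in ATRA by 0.29 (log2).

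**Figure D3:**
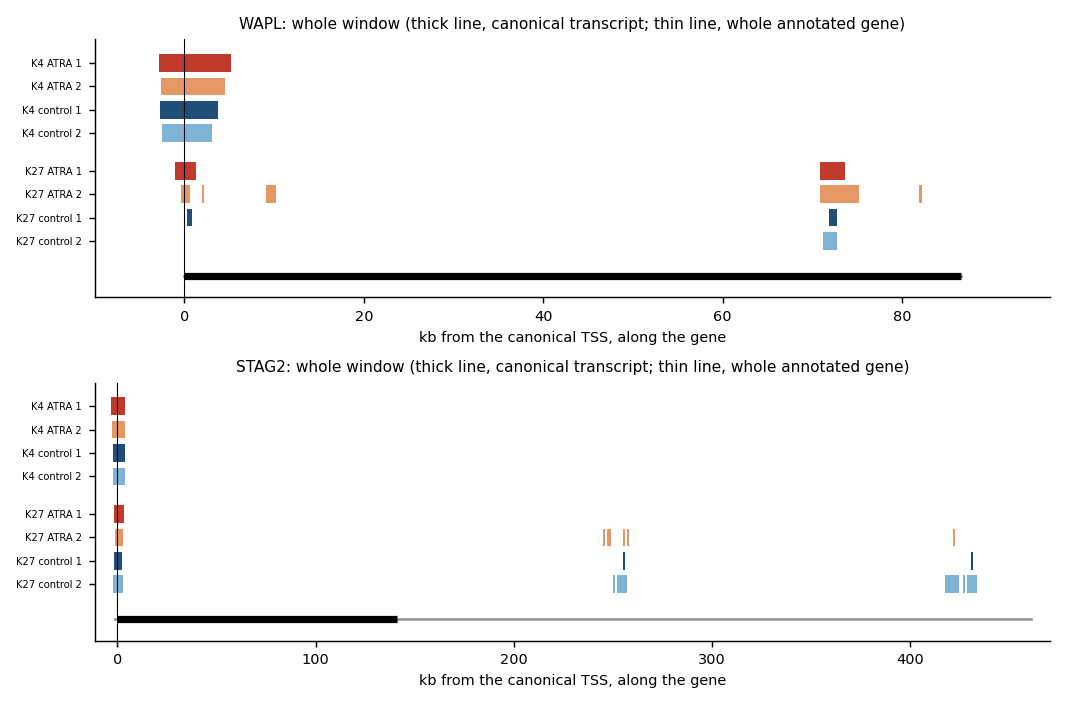
Peaks of each library (rows; K4, H3K4me3; K27, H3K27ac; red and orange, ATRA; dark and light blue, control) over the windows of WAPL and STAG2, in kilobases from the canonical TSS along the gene, with the canonical transcript as a thick line and the annotated gene as a thin line. WAPL shows the H3K27ac gain at the start and in the intron at 73.0 kb, and STAG2 shows H3K27ac peaks past the end of its canonical transcript that are longest in control 2.

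Among the looping factors, YY1 and LDB1 also had CG-rich promoters. The 250 bases before the start of YY1 (chr14:100705231-100705480, plus strand) and of LDB1 (chr10:103880126-103880375, minus strand), the other genes with more H3K27ac in both ATRA libraries, are shown in the same way with CG in capitals.
YY1 promoter: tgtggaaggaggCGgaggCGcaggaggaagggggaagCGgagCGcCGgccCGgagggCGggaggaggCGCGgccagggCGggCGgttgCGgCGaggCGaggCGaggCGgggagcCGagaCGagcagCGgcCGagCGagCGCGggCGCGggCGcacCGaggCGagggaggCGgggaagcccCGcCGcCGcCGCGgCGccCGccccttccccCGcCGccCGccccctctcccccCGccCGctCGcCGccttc
LDB1 promoter: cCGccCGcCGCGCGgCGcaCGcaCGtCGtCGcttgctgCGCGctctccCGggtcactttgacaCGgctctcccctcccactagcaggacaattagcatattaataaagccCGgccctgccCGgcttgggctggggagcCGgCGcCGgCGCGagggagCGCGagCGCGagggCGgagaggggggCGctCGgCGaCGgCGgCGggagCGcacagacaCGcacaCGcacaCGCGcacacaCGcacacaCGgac
These held 43 and 39 CG dinucleotides, more than 98.5% and 96.2% of promoters. CTCF and STAG1, whose H3K27ac windows overlapped, had CG-rich promoters too, with 39 and 34 CG, more than 96.2% and 90.2% of promoters. The promoter of RAD21 was not read. Among the other 9 genes, the number of CG ran from 10 for STAG2 to 43 for YY1. Their median was 34, against a median of 18 over 20094 promoters. The letters GGGCGG, the core of the GC box bound by SP factors, occurred on either strand in 8 of the 9, against 58.6% of all promoters. CCGGAAG, an ETS core, occurred in 1 of the 9 (NIPBL) and in 11.8% of promoters, and ATGGCGG, a YY1 core, in 2 of the 9 (SMC3 and WAPL) and in 3.05%.

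YY1, a zinc finger protein that bridges promoters and enhancers, lies at chr14:100704635-100749125. Its H3K4me3 window held 10848 and 11730 bp in ATRA and 10041 and 9578 bp in control, higher in ATRA by 0.18 (log2). The H3K4me3 peak over the start overlapped, with 9130 and 10104 bp in ATRA and 8732 and 9141 bp in control. The call of higher therefore needed a separate region past the 3′ end at chr14:100750965-100752917. This region measured 1718 and 1626 bp in ATRA and 1309 and 437 bp in control. The H3K27ac window held 5540 and 6899 bp in ATRA and 4032 and 2655 bp in control (6219.5 ± 961 against 3343.5 ± 974 bp, SD, n = 2), also without overlap, at 0.73. The peak over the start gave most of it, with 4890 and 4387 bp in ATRA against 2821 and 2655 bp in control. After scaling by the covered length, the log2 change of H3K27ac was −0.16.

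LDB1, the adaptor that dimerizes to join distant LMO and GATA complexes, lies at chr10:103866246-103880125. It is the shortest gene of the 10 and the one most fully covered, since H3K4me3 lay over 33.7% to 39.2% of its window in each library. The H3K4me3 window held 13273 and 11543 bp in ATRA and 11414 and 11760 bp in control, which overlapped. H3K27ac measured 9503 and 8560 bp in ATRA and 3185 and 6942 bp in control (9031.5 ± 667 against 5063.5 ± 2660 bp, SD, n = 2), higher in ATRA by 0.73 (log2). The change was 0.34 without control 1 and 1.26 without control 2, and after scaling it was 0.03 and the groups overlapped. Each ATRA library had 1 unbroken H3K27ac peak from before the LDB1 start to 7.26 and 7.30 kb inside it. Control 2 had 1 peak to 5.91 kb, and control 1 had 3 short peaks of 486 to 2165 bp inside the gene and none over the start. The 3 peaks of control 1 had a −log10 q of 10.4 to 11.4 and the single peak of control 2 one of 1.20.

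SATB1, the chromatin organizer best known from thymocytes, lies at chr3:18386869-18487113 on the minus strand and had 2 marked promoters. The canonical start carried 5992 and 7281 bp of H3K4me3 in ATRA and 6030 and 6078 bp in control, which overlapped. The second is centred at −19.0 kb from it. It covers another annotated start of SATB1 and alternative starts of SATB1-AS1 and TBC1D5, whose canonical starts lie elsewhere. This second promoter carried 8227 and 8023 bp in ATRA and 8165 and 6963 bp in control. Summed over the window, H3K4me3 was 14219 and 15304 bp in ATRA and 14195 and 13041 bp in control, a call of higher that rested on a gap of 24 bp between ATRA 1 and control 1. The log2 change of 0.11 ran from 0.05 without control 2 to 0.17 without control 1. H3K27ac overlapped, with 4653 and 9711 bp in ATRA and 1543 and 9407 bp in control.

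Around the starts, the H3K4me3 peak was longer in both ATRA libraries for 6 of the 10 genes (RAD21, SMC3, STAG2, NIPBL, WAPL and LDB1) and shorter for 0, against 41.3% longer and 4.69% shorter among 10906 genes. The H3K27ac peak over the TSS was longer for 3 (WAPL, YY1 and LDB1) and shorter for 0, against 30.5% and 3.66% of 8734 genes. The downstream edge of the H3K4me3 peak lay farther into the gene in both ATRA libraries for 8 of the 10 genes, all except STAG1 and SATB1, against 41.7% of the 10128 genes with such a peak in all 4 libraries. Its upstream edge lay farther out for 2, RAD21 and STAG2, against 32.5%.

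The downstream reach for WAPL was 5240 and 4496 bp from the TSS in ATRA and 3784 and 3045 bp in control, a gap of 712 bp between the nearest libraries. For NIPBL it was 5209 and 5412 bp in ATRA and 4341 and 3771 bp in control, a gap of 868 bp. At CTCF the same call rested on 3697 and 3708 bp against 3695 and 3641 bp, a gap of 2 bp. On the upstream side, WAPL reached 2783 and 2567 bp in ATRA and 2670 and 2452 bp in control, with overlap.

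**Figure D4:**
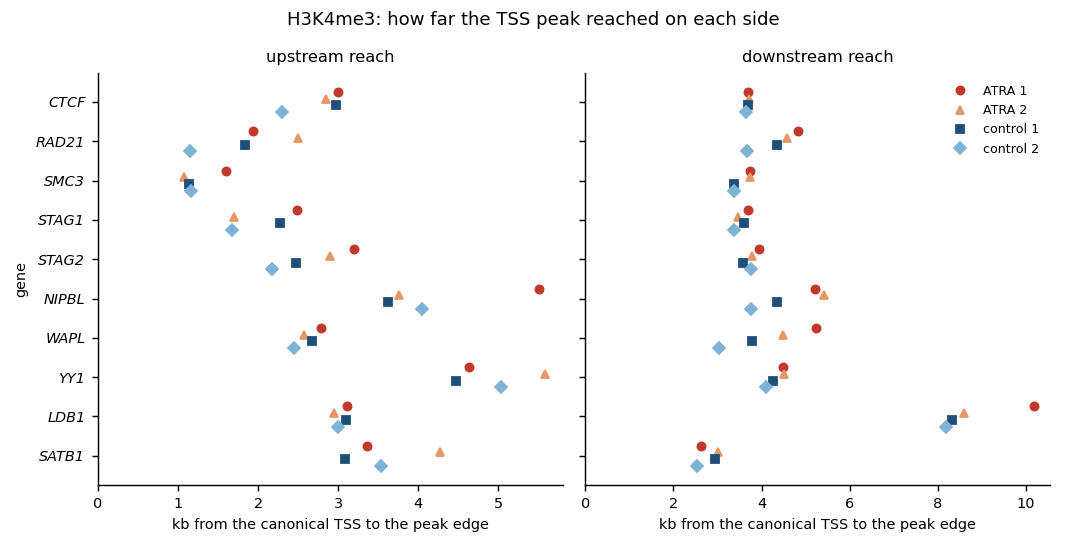
Distance in kilobases from the canonical TSS to the edge of the H3K4me3 peak that covers it (x axis, from 0), upstream on the left and downstream on the right, for the 10 genes (rows) and 4 libraries (points). On the downstream side the ATRA points lie beyond both control points for 8 genes, most clearly for NIPBL and WAPL, and on the upstream side for RAD21 and STAG2.

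The starts of 7 genes lie within 1 kb of that of a long non-coding RNA read in the other direction, and a broad peak cannot be divided between the partners. The distance between the 2 starts was 217 bp for CTCF-DT, 352 bp for RAD21-AS1, 252 bp for STAG1-DT, 365 bp for STAG2-AS1, 112 bp for NIPBL-DT, 153 bp for WAPL-DT and 589 bp for an unnamed RNA (ENSG00000258982) at YY1. Across the 10 windows 38 other annotated genes had a start, of which 4 were protein-coding: CARMIL2 in the window of CTCF, SH2D1A and TEX13D in that of STAG2, and TBC1D5 in that of SATB1. For TBC1D5 this was an alternative start.

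Added over the 10 windows, H3K4me3 farther than 2 kb from any start measured 26947 and 25372 bp in ATRA and 20566 and 16009 bp in control. Within 2 kb of the genes' own starts the sums were 61159 and 59058 bp in ATRA and 57549 and 55730 bp in control. In that class some genes were covered in full in every library, as NIPBL was, and could not differ there, so the 2 sums are not compared. Of the 18 H3K4me3 regions, 13 were found in all 4 libraries, against 57.3% over the genome, and 0 in both controls only, against 0.759%.

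Of the 41 H3K27ac regions in the 10 windows, 11 were found in all 4 libraries, against 18.7% over the genome, and 19 in 1 library (46.3%, against 56.4% over the genome). None was found in both ATRA libraries only, a class with 8.07% of the regions of the genome. The 11 shared regions comprised 9 at canonical starts, the second SATB1 promoter and the WAPL intron. Near the genes' own starts H3K27ac summed to 38826 and 44038 bp in ATRA and 26080 and 37436 bp in control, and farther than 2 kb from any start to 6030 and 24305 bp in ATRA and 7117 and 33009 bp in control, where the replicates differed far more than the conditions. The WAPL intron was the 1 shared H3K27ac region away from any start of the 10 genes.

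**Figure D5:**
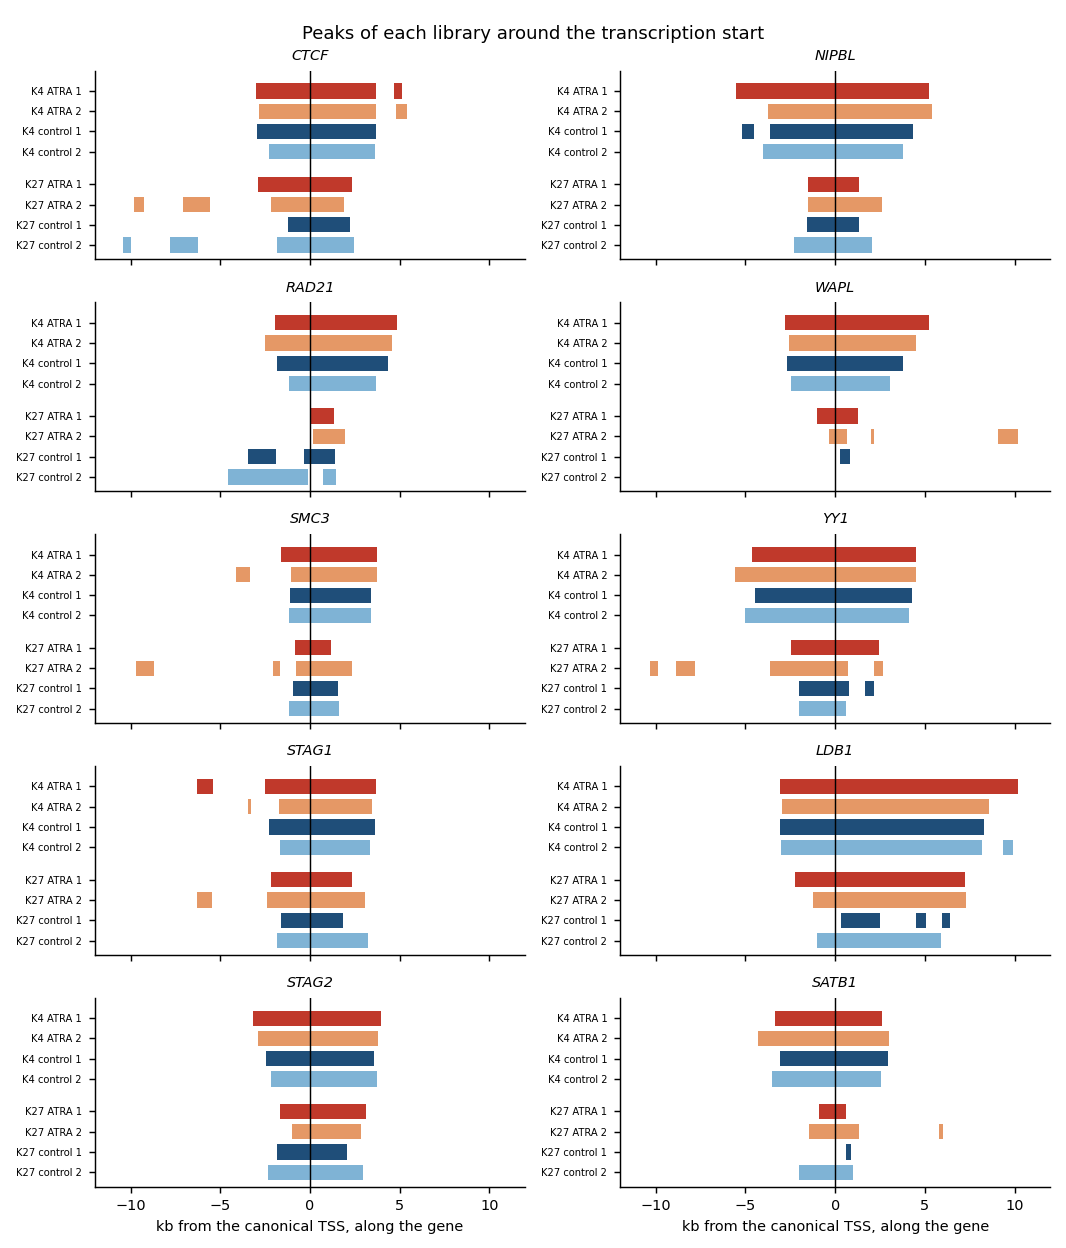
Peaks of each library (rows; K4, H3K4me3; K27, H3K27ac; red and orange, ATRA; dark and light blue, control) within 12 kb of the canonical TSS (vertical line) of the 10 genes, with the direction of transcription to the right. H3K4me3 spans the start in every library, H3K27ac mostly covers a shorter stretch, and the upstream H3K27ac of RAD21 appears in the control libraries only.

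The other genes of genome organization were taken as 48 further genes: the remaining ring and axis subunits, cohesin regulators, boundary zinc fingers, looping partners, condensins, other SMC proteins, nuclear scaffold proteins and coactivators. For each mark 43 of the 48 had a peak in the window. H3K4me3 was higher in ATRA for 20 and lower for 2, with a median log2 change of 0.12, and H3K27ac was higher for 16 and lower for 0, with a median of 0.29. The shares over all genes given above for these calls, 40.8% and 41.6% higher, lie near those of the 48. After scaling the counts were 7 higher and 12 lower for H3K4me3 and 3 higher and 18 lower for H3K27ac, next to 16.1% and 24.7% and to 17.7% and 25.4% over all genes. SAFB and SAFB2 are neighbours with overlapping windows and the same H3K27ac values, so they count as 2 genes but not as 2 observations. Condensins had 5 of 8 higher for H3K4me3 and 4 of 8 for H3K27ac, and cohesin regulators 2 of 8 and 3 of 8, and such small counts near the share over all genes show nothing particular to a class. After scaling, condensins had 1 higher and 1 lower for H3K4me3 and 1 higher and 4 lower for H3K27ac.

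ESCO1, the acetyltransferase that acts on SMC3, was higher for both marks. Its H3K27ac window held 5457 and 5820 bp in ATRA and 1915 and 2669 bp in control, at a log2 change of 1.01, and its H3K4me3 window 5725 and 5743 bp against 4908 and 3909 bp, at 0.32. SSBP3, a single-stranded DNA binding protein that stabilizes LDB1, had the highest H3K27ac change of the 48, with 15667 and 12530 bp in ATRA and 3122 and 3642 bp in control, at 1.78. Both genes were higher for both marks after scaling too. The others higher for both marks before scaling were ADNP, NCAPD3, NCAPH, NCAPH2, REC8, SMC5, SSBP4 and VEZF1. Among all 12989 genes with peaks of both marks, 19.0% were higher for both before scaling and 4.55% after it. These calls concern windows and not starts. No library had a peak of either mark over the TSS of REC8, or a H3K27ac peak over the TSS of SSBP3.

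HDAC8, the deacetylase of SMC3, had the highest H3K4me3 change of the 48, with 3997 and 4289 bp in ATRA and 2774 and 2164 bp in control, at 0.57. ADNP followed at 0.46 and SSBP3 at 0.39, and SMC5 at 0.09 was the smallest of the gains. The lower genes were PDS5A, a cohesin axis protein, with 3261 and 3215 bp in ATRA against 4612 and 3307 bp in control, at −0.23, and PATZ1, a zinc finger protein, at −0.16. In H3K27ac, NCAPD3 stood at 0.96, and NCAPH at 0.28, NCAPH2 at 0.29 and SMC6 at 0.29 were the smallest of the gains.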

How the data were processed

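H3K4me3 and H3K27ac ChIP-seq peaks of 8 HL-60 libraries were used. Per the labels and the methods, the authors trimmed adapters (cutadapt), mapped them by Bowtie on hg19, and ran MACS2 for broad peaks in each library. The versions are not given in the sources used here. The deposited files give peak positions and a −log10 q value, used as a filter of 5 and to describe peaks. The columns for fold enrichment and −log10 p contain impossible values and were left out. Whether the −log10 q column is sound was not tested. Read numbers behind a peak are unknown, so no counting interval can be given.

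Gene models and canonical TSS came from GENCODE 44 lifted to GRCh37, and sequences from the same genome. Overlapping peaks of a library were merged, and base pairs under peaks were summed over the gene body plus 10 kb on each side. Log2 changes used group means plus 1000 bp. Scaling divided lengths by the total under peaks of the library. Base pairs within 2 kb of any TSS were separated from the rest. Groups were compared by overlap and by the exact permutation test. Python 3.11.15, numpy 2.4.6 and pandas 2.3.3 were used. The code for the overlap calls was run on simulated data whose changes were larger than those of H3K4me3 here. That run checks the code and does not give the share of false calls in these data.

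Libraries with the same replicate number deviated together over 75888 bins of 40 kb (correlation 0.223 for H3K4me3 and 0.556 for H3K27ac). Peak names in the files also carry a tag that ATRA and control libraries of 1 number share, whose meaning is not stated. The labels do not say that a number marks a shared batch, so the main comparison is unpaired, and counts within replicate numbers are given beside it. Members and gene lists were chosen with earlier results of these data known. All 10 genes were named, and of the 48 further genes, for each mark, the 3 with the highest and the 3 with the lowest log2 change among those without overlap, and those without overlap in the same direction for both marks. Genes whose TSS lay in a window were named if protein-coding or divergent from the start, and otherwise counted.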

Additional observations from a re-analysis of the deposited data

How the results depend on the processing

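The H3K4me3 results rested on the total length under peaks. With lengths scaled per library, 1 gene was higher instead of 7, 1 was lower instead of 0 and the median log2 change was −0.03 instead of 0.18, with STAG2 at −0.03, YY1 at −0.03 and SATB1 at −0.11. With peaks counted instead of measured, 1 gene was higher and the median was 0.00, with NIPBL at −0.32. The median was 0.12 with no flank and 0.12 with a pseudocount of 5000 bp. Leaving out each library gave 7 to 10 genes higher, medians of 0.15 to 0.24, and 0 to 1 gene with a shorter TSS peak.

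For H3K27ac, scaling gave 1 gene higher instead of 3, 5 lower instead of 1 and a median of −0.41 instead of 0.27, with YY1 at −0.16. Peak numbers gave 0 higher and a median of −0.08, with LDB1 at −0.58. With a −log10 q of at least 5, the counts of genes higher, of genes lower, of genes with a TSS peak in all libraries and of longer TSS peaks were all 0, and the median was 0.00. Without the flank 0 genes were lower and RAD21 stood at 0.31, equal peak numbers gave 2 lower, and a flank of 50 kb gave a median of 0.56. Leaving out each library gave 3 to 6 genes higher, 1 to 4 lower, medians of −0.19 to 0.60, 3 to 6 longer TSS peaks and 1 to 3 shorter. The median was −0.19 without ATRA replicate 2 and −0.19 without control replicate 1, so 1 library decided its sign. The cause of these changes was not tested.

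With the replicate number as a block (both within-number differences in 1 direction; smallest p 0.5), H3K27ac was higher for 5 genes and lower for 3, with 1 shorter TSS peak, and H3K4me3 was higher for 9. The depth of the libraries is unknown. The low −log10 q of the H3K27ac peaks, as far as that column can be relied on, limits what their presence or absence in 1 library shows.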
